A study of Mus musculus with 7 samples.

Results

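The myoepithelial cells of the mammary gland described here are the 1670 cells, of 13684 in the series, that the authors' deposited annotation calls Myoepithelial. They came from 7 virgin (nulliparous) females of mixed background (FVB, 129 and C57BL/6J), killed at diestrus, with 1 single-cell library per mouse from the abdominal #4 glands after removal of the lymph nodes. The young group was 3–4 months old (Young A, B and C, with 187, 40 and 54 myoepithelial cells) and the aged group 13–14 months old (Aged A, B, C and D, with 262, 662, 125 and 340). The paper names no transgene or treatment for these mice. The cells were dissociated with enzymes and loaded without sorting, transcripts were counted as unique molecular identifiers (UMIs), and counts were summed over the myoepithelial cells of each mouse, so that the mouse is the replicate. Levels are given as CPM, the UMIs of a gene scaled to a sum of 1000000 UMIs.

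Myoepithelial cells form the outer, basal layer of the mammary epithelium and lie on the basement membrane that they help to build. They carry basal keratins together with the actin and myosin of smooth muscle, and in the lactating gland they contract in response to oxytocin and push milk out of the alveoli. They also adhere to laminin and collagen through integrins and hemidesmosomes and signal to the luminal cells above them, which are alveolar luminal (AV, milk-producing) or hormone-sensing (HS).

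The deposited label matched its markers. The paper identified the type by these same markers, so the match is a description and no test of the label. Krt14, Krt17 and Krt5, the keratin filaments of basal epithelium, averaged 5207 ± 606, 5014 ± 1102 and 411 ± 124 CPM in myoepithelial cells (SD, n = 7 mice), against at most 114, 79.4 and 6.38 CPM in any of the 12 other types. Acta2, smooth muscle actin, averaged 3827 ± 3519 CPM and was shared with pericytes, the contractile cells of small vessels, at 2872 CPM, while each of the other types averaged at most 34.7 CPM. At least 1 UMI of both Krt14 and Krt17 was found in 93.5% of young and 94.4% of aged myoepithelial cells after each cell was thinned to 2000 UMIs (means over mice, exact two-sided permutation test over mice, p = 0.629).

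The sums held 203450 to 1059082 UMIs per young mouse and 650036 to 2903207 per aged mouse, with the lowest depth in Young B and Young C. The median myoepithelial cell had 4759.5 to 5226.5 UMIs in young and 3797 to 4856 in aged mice (exact p = 0.114), and mitochondrial UMIs were 4.38% to 5.68% and 3.02% to 3.88% of a cell (exact p = 0.0286, the smallest that 3 mice against 4 can give). Sums of aged mice resembled each other more than sums of young mice did, with correlations of log2 CPM of 0.938 to 0.962 between aged mice, 0.839 to 0.900 between young mice and 0.753 to 0.864 across the ages. Over the 21 pairs of libraries 101 cell barcodes occurred in 2 libraries, and 30 of the myoepithelial cells carried such a barcode. Cell barcodes were written differently for young and aged mice, and in every comparison of age that follows the effects of age and of library handling cannot be told apart. Marker genes of fibroblasts (8 genes, summed level 998 to 1350 CPM in young and 313 to 711 CPM in aged mice), of vascular endothelium (6 genes, 205 to 644 and 40.6 to 183 CPM) and of immune cells (5 genes, 197 to 308 and 42.4 to 93.0 CPM) were lower in every aged than in every young myoepithelial sum. Pericyte markers were near 0 (4 genes, 0 to 7.55 and 1.38 to 15.6 CPM). The summed level of the 12 alveolar markers overlapped between the ages (3309 to 4006 and 2702 to 5069 CPM). Most of that sum was Lcn2, at a mean of 2305 CPM in young and 2414 CPM in aged mice. Of the 12, 4 were higher and 1 was lower in every aged than in every young mouse. The part of RNA from other cells in the age differences was not tested.

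Beyond its 4 markers the type had a compact set of genes of its own. Of 2074 genes with a mean of at least 50 CPM in myoepithelial cells, 414 were higher there than in any other type, and 81 at least 2-fold higher than in each of them, which describes the annotated type and is no test of it, because all genes served to cluster the cells. In the young mice alone 57 of the 81 kept this 2-fold margin, in the aged mice alone 69, and in both ages 46. Behind the 3 keratins, the largest margin was that of Slpi, a secreted inhibitor of leukocyte proteases, with 9995 CPM and 26.7 times the next type. Nrg1, the neuregulin ligand of ERBB receptors, followed at 89.4 CPM and 26.5 times. Next stood Npy, the precursor of neuropeptide Y (611 CPM, 14.7 times), and the keratin Krt15 (380.5 CPM, 14.2 times). Moxd1, a monooxygenase, had a margin of 13.9 and Aqp3, a channel for water and glycerol, one of 13.5. Col17a1, the transmembrane collagen of hemidesmosomes, stood 13.2 times above the next type. The secreted cytokines Cxcl14 (2863 CPM, 12 times) and Il17b (219 CPM, 11.5 times) belonged to the same group. The multicopy gene Speer4e and the matrix gene Ltbp2 stood further down, with margins of 10.4 and 9.16. Speer4e belongs to a family of near-identical copies, so the gene its reads belong to is uncertain.

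**Figure D1:**
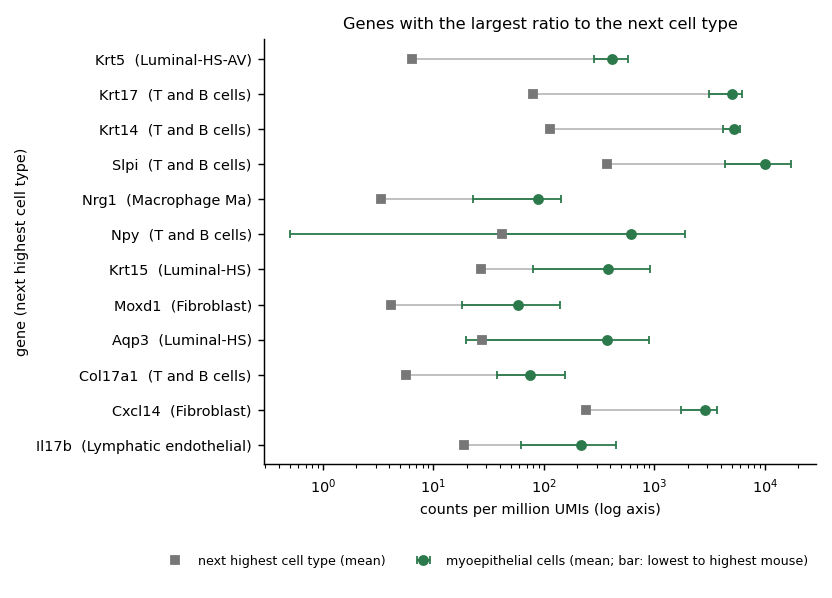
Level of the 12 genes with the largest ratio of myoepithelial cells to the next cell type, in CPM on a log axis. Green points are means over 7 mice with bars from the lowest to the highest mouse (a lowest mouse at 0 is drawn at 0.5 CPM), and grey squares are the mean of the next highest type, named beside each gene. Krt5, Krt17 and Krt14 have the widest gaps, 64.5, 63.2 and 45.9 times.

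The genes that set the type apart were not equally strong at both ages. Aqp3 stood at 30.2, 19.7 and 29.2 CPM in Young A, B and C and at 898, 546, 311 and 754 CPM in Aged A to D. In young mice it therefore equalled the next type (ratio 0.974, HS cells), and in aged mice it exceeded it 22.6-fold. Npy was close to absent in the young (23.6, 29.5 and 0 CPM) and reached 777, 1002, 543 and 1899 CPM in the aged mice. Krt15 went the other way, from 914, 492 and 740.2 CPM to 127, 163, 148 and 80.4 CPM, and its margin over the next type was 29.9 in young and 3.75 in aged mice. Il17b behaved alike, at 326, 339 and 448 CPM in the young and 89.1, 129, 138 and 62.2 CPM in the aged mice, whereas Cxcl14 had 2509, 3224 and 3224 and 3700.4, 2919.9, 2729 and 1733 CPM with no separation of the ages. All of these but Cxcl14 passed the test of age described next.

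Young and aged myoepithelial sums were set against each other in edgeR's quasi-likelihood test, and a gene was called where the Benjamini-Hochberg adjusted p over all 6738 tested genes was under 0.05 and the change at least 1.5-fold. Aged myoepithelial cells were higher in 862 genes (12.8%) and lower in 998 (14.8%), 27.6% in either direction, and 2713 genes had an unadjusted p under 0.05. The counts of list members below are to be read beside these shares of all genes. The values of the ages did not overlap in 734 of the genes called higher and 885 of those called lower, where 14.8% of all tested genes were higher and 20% lower without overlap (34.8% in either direction). The median change over all genes was 0.01 on the log2 scale. Without the TMM factors, which scale the sums to each other, this median was -0.10 and the calls were 652 higher and 1149 lower, so small changes depend on the scaling and are read relative to that shift. Without Young A, the young mouse with most cells, 492 and 480 genes were called, and 45 of the 191 genes named and called here that could be fitted lost their call. Fewer of them lost it without any other mouse (7 to 23). In simulated data of the same size the fit recovered 86.4% of genes changed 4-fold and 27.8% of those changed 2-fold. The simulation gave every gene the same assumed dispersion and changed only genes above a minimum count, so recovery in the real data may differ. A gene not called may still have changed.

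Of the 4 markers, Acta2 fell, Krt5 fell by less, Krt17 rose slightly and Krt14 did not pass the test. Krt14 was at 4152, 5402 and 6022 CPM in Young A, B and C and at 4976, 5604, 5441 and 4853 CPM in Aged A to D, and the ages overlapped (log2 change 0.12 ± 0.20 SE, edgeR adjusted p = 0.691). Krt5 was at 573, 496 and 549 CPM and at 288, 336, 354 and 284 CPM, with every aged mouse below every young mouse (fell by 0.68 ± 0.18 on the log2 scale, edgeR adjusted p = 0.0114). Krt17 was at 4382, 3102 and 4441 and 6184, 5804, 5941 and 5245 CPM, a rise of 0.64 ± 0.21 (edgeR adjusted p = 0.0278) with the ages apart. Without TMM factors that rise was under 1.5-fold, and the call also ended with sums thinned to 1 total, with a block of the label letters, and without Young A, Young B, Aged B or Aged C (edgeR adjusted p = 0.0549 to 0.106). Among the other basal keratins, Krt15 fell by 2.40 ± 0.25 on the log2 scale (edgeR adjusted p = 7.75e-06), the largest fall among the keratins tested. Krt16, a keratin of stressed and wounded epidermis, rose from 47.2, 24.6 and 58.4 CPM to 221, 127, 166 and 366 CPM (log2 change 2.39 ± 0.39, edgeR adjusted p = 0.000342). In all, 2 of the 5 tested basal keratins rose and 2 fell (median log2 change 0.12, which was just below 0 without TMM factors). The luminal keratins were low in these cells, and of 4 tested none rose and 2 fell, Krt7 (26.4, 54.1 and 32.5 to 12.9, 18.6, 6.15 and 6.85 CPM) and Krt19 (135, 216 and 273 to 131, 103, 66.2 and 47.4 CPM), with a median log2 change of -0.43, which was 0.63 in G1 cells, where 1 of 3 tested rose and none fell. Without Young B 1 luminal keratin was called higher and the call of Krt7 was lost, as was that of Krt19 without Young C (edgeR adjusted p = 0.0659 and 0.0849). Krt8 and Krt18 had changes of 0.60 ± 0.26 and 0.25 ± 0.25 that missed the threshold (edgeR adjusted p = 0.0883 and 0.479).

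**Figure D2:**
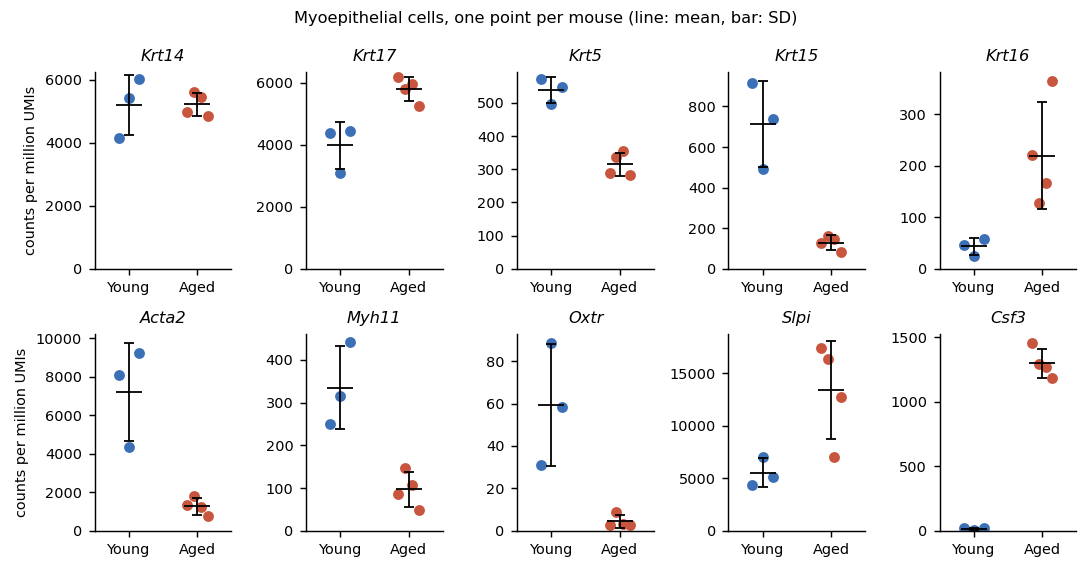
CPM of 10 genes in myoepithelial cells, with 1 point per mouse, the mean as a line and the SD as a bar, for 3 young and 4 aged mice. Krt14 overlaps between the ages, Krt5, Krt15, Acta2, Myh11 and Oxtr lie lower in every aged mouse, and Csf3 lies between 1184 and 1453 CPM in the aged mice against at most 22.7 in the young.

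Acta2 fell in level and was detected in fewer cells, and a lower level lowers detection by itself. Acta2 stood at 8083, 4345 and 9245 CPM in Young A, B and C and at 1331, 1816, 1214 and 754 CPM in Aged A to D, so the highest aged mouse had less than the lowest young mouse (fell by 2.41 ± 0.29 on the log2 scale, edgeR adjusted p = 3.03e-05). After thinning to 2000 UMIs, a UMI of Acta2 was found in 99.5%, 100% and 98.1% of the myoepithelial cells of the young mice and in 61.5%, 65.1%, 64.8% and 49.4% of those of the aged mice (99.2% against 60.2% on average, 99.4% against 71.5% without thinning, exact two-sided permutation test, p = 0.0286). The share in AV cells, which should lack the gene, was 5.21% in young and 2.07% in aged mice at the same thinned depth. Krt15 was found in 57.2%, 27.5% and 44.4% of young and in 8.02%, 12.2%, 14.4% and 6.18% of aged cells (43.1% against 10.2% on average, 57.9% against 14.6% without thinning, exact p = 0.0286, AV cells 0.513% and 0.257%). For Krt5 the averages were 61.2% and 40.9% (87.5% and 63.0% without thinning, exact p = 0.0286, AV cells 0.834% and 0.664%). Krt14 stayed detectable in 98.8% and 95.9% of cells and Krt17 in 94.7% and 97.6%, differences that did not reach the smallest p of the design (both exact p = 0.0857, AV cells 4.25% to 6.27%). Trp63, the p63 factor of basal epithelium, was found in 5.26% and 4.01% of thinned cells (exact p = 0.371) and in 20.9% and 9.78% without thinning (exact p = 0.0286), with at most 0.434% of AV cells.

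**Figure D3:**
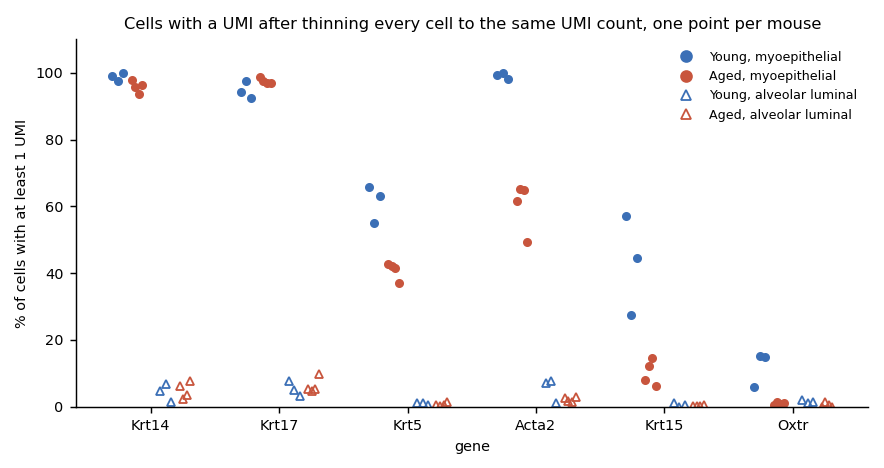
Percent of cells with at least 1 UMI of 6 genes after thinning each cell to 2000 UMIs, with 1 point per mouse, filled circles for myoepithelial and open triangles for AV cells. Acta2 is found in 98.1% to 100% of young and 49.4% to 65.1% of aged myoepithelial cells, and Krt14 and Krt17 in over 90% at both ages.

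Many other genes of smooth muscle contraction fell with Acta2. All 6 contractile genes that the paper names fell (Acta2, Actg2, Mylk, Myl6, Myl9 and Myh11, median log2 change -1.72), a list chosen on these samples and so not independent evidence of its direction. The paper also stained the proteins ACTA2 and KRT15 in additional mice, whose aged group was older. It reported lower levels of both in aged glands. Of 15 tested among 19 further contractile genes, 8 fell and 2 rose, with a median log2 change of -0.88 (1 rise without Young B or Aged D and none without Young A). Tagln, the actin-binding transgelin, was at 1665, 1784 and 3220.3 CPM in Young A, B and C and at 560.4, 1166, 671 and 468 CPM in Aged A to D. Its fall was 1.53 ± 0.29 (edgeR adjusted p = 0.0012), with no overlap of the ages. Cnn1, calponin of smooth muscle, went from 689, 560.3 and 1419 to 248, 424, 329 and 159.7 CPM, and its relative Cnn2 from 163, 44.2 and 162 to 32.2, 38.6, 21.5 and 24.5 CPM (fell by 1.52 ± 0.32 and 2.03 ± 0.32 on the log2 scale, edgeR adjusted p = 0.00211 and 0.000239). Flna, the actin crosslinker filamin A, fell by 1.65 ± 0.24 on the log2 scale and Ppp1r14a, an inhibitor of myosin phosphatase, by 1.93 ± 0.40 (edgeR adjusted p = 0.000151 and 0.00211). Tropomyosin Tpm1 (708, 649 and 1019 against 687, 861, 817 and 815 CPM), caldesmon Cald1 and smoothelin Smtn were not called, at log2 changes of 0.12, -0.40 and 0.42 (edgeR adjusted p = 0.726, 0.224 and 0.17). Pgm5, a muscle adhesion protein of the phosphoglucomutase family, was one that rose, from 5.67, 4.92 and 9.74 to 15.6, 16.2, 38.5 and 17.1 CPM, though not without Young A (edgeR adjusted p = 0.181). Because Acta2 and Actg2 share most of their coding sequence, the division of reads between them is uncertain.

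The receptor that triggers the contraction fell as well. Oxtr, the oxytocin receptor, stood at 31.2, 88.5 and 58.4 CPM in Young A, B and C and at 2.76, 8.96, 3.08 and 2.85 CPM in Aged A to D, with Aged B the highest of the aged mice and still below every young mouse. It fell by 3.16 ± 0.45 on the log2 scale (edgeR adjusted p = 0.000121). An Oxtr UMI was found in 5.88%, 15% and 14.8% of thinned young cells and in 0.382%, 1.36%, 0.8% and 1.18% of thinned aged cells (11.9% against 0.929% on average, 20.9% against 1.70% without thinning, exact p = 0.0286). AV cells had 1.51% and 0.421%. Oxtr averaged 4.78 CPM in AV cells, above HS cells, pericytes and fibroblasts (0.249, 0.215 and 0.560 CPM). AV cells are therefore no background that lacks the gene. In aged mice the myoepithelial mean was 2.24 times that of AV cells, the next type. Of the 9 tested members of the list of signals from Oxtr to myosin, 2 rose and 1 fell (median log2 change -0.24), and Oxtr was the one that fell. The shares over all tested genes were 12.8% higher and 14.8% lower. Those that rose were Rock1, a kinase that raises myosin phosphorylation (42.5, 49.2 and 77.9 to 106, 111, 111 and 98.7 CPM), and the GTPase Rhoa (187, 226 and 201 to 308, 271, 288 and 286 CPM), and without Young A neither passed (edgeR adjusted p = 0.0518 and 0.0805). The G protein subunits Gnaq and Gna11, which couple the receptor to calcium release, had log2 changes of -0.24 and -0.19 (edgeR adjusted p = 0.561 and 0.769).

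The promoters of 2 fallen contractile genes are shown because they hold a CArG box, the site of serum response factor, in the stretch from 170 to 46 bases before the RefSeq start (GRCm38.p6, both on the + strand, capitals mark the box). Myl9 lies at chr2:156775294-156775418, with the box starting 161 bases before the start, and Cnn2 at chr10:79988430-79988554, with the box 56 bases before it.
Myl9: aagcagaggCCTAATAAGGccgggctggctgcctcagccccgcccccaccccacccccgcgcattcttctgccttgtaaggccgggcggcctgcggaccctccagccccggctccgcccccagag
Cnn2: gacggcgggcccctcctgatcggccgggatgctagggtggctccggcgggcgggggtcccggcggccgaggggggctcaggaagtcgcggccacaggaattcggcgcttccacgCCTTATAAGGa

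Over whole RefSeq promoter entries, from 250 bases before to 50 after the start, a CArG box was searched on either strand. It was found in 535 of 32851 promoters of all genes (1.63%), or in 488 of 27025 genes. It was found in 2 of the 4 contractile genes of the paper with a promoter entry (Myl6 and Myl9) and in 3 of 16 further contractile genes (Cnn2, Fhl1 and Srf). A match is a description of the letters in these entries, and the motif was chosen with results of these data known.

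Of 16 tested basement membrane genes 9 fell and none rose (median log2 change -0.89, 6 to 10 falls with each mouse left out in turn), and Col4a1, Col4a2 and Sparc among them are also named in the paper from these samples. Col4a1, a chain of the network-forming collagen IV, was at 87.8, 167 and 243 CPM in Young A, B and C and at 26.6, 40.3, 27.7 and 18.8 CPM in Aged A to D, with a wide gap between the ages. It fell by 2.32 ± 0.32 on the log2 scale and its partner Col4a2 by 1.77 ± 0.32 (edgeR adjusted p = 9.74e-05 and 0.000726). Col7a1, the anchoring fibril collagen beneath basal epithelia, went from 76.5, 14.7 and 64.9 to 10.1, 14.5, 7.69 and 5.13 CPM (fell by 2.47 ± 0.40, edgeR adjusted p = 0.000311). The laminin chains Lamb2 and Lama5 fell by 1.71 ± 0.34 and 1.26 ± 0.32 on the log2 scale (edgeR adjusted p = 0.00143 and 0.00861, and 0.0555 for Lama5 without Young A). Sparc, a matrix protein that binds collagen, fell at a much higher level, from 1518, 1401 and 1422 to 733, 754, 637 and 411 CPM. The laminin chain Lamb3 was not called, with a log2 change of 0.17 (edgeR adjusted p = 0.596). Fibroblast transcripts, which include collagens, were also lower in the aged sums, as given above, and their part in these falls was not tested.

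Receptors for the matrix split in both directions, with 5 of 13 tested higher and 4 lower (median log2 change 0.14), 2 and 3 without Young A, 4 and 2 without Young C and 3 rises without Aged B or Aged D. Cd44, the hyaluronan receptor, was at 60.4, 54.1 and 55.2 CPM in the young and at 231, 188, 268 and 204 CPM in the aged mice. This rise of 2.04 ± 0.22 (edgeR adjusted p = 1.17e-05) was accompanied by one of 0.98 ± 0.20 in Sdc1, a heparan sulfate proteoglycan (edgeR adjusted p = 0.00214). Dag1, the laminin receptor dystroglycan, fell from 144, 113 and 153 to 40.4, 40.3, 29.2 and 24.5 CPM, and Itgb4, the integrin of hemidesmosomes, from 37.8, 54.1 and 39 to 13.8, 13.1, 10.8 and 6.85 CPM. The falls were 1.92 ± 0.22 and 1.79 ± 0.31 on the log2 scale (edgeR adjusted p = 2.32e-05 and 0.000567). Col17a1 also fell, by 0.89 ± 0.28 on the log2 scale (edgeR adjusted p = 0.0273), but not without Young C, without Aged A or in G1 cells alone (edgeR adjusted p = 0.267, 0.0618 and 0.37). Itga6, the partner of Itgb4, had 146, 152 and 224 and 198, 190.5, 148 and 112 CPM and was not called (log2 change 0.00 ± 0.22, edgeR adjusted p = 0.996).

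Of 16 tested cell junction genes 7 rose in the aged cells and 1 fell (median log2 change 0.55). Epcam, the adhesion molecule of simple epithelia, was at 371, 472 and 484 CPM in Young A, B and C and at 2089, 1459, 1659.9 and 1911 CPM in Aged A to D. Every aged mouse stood far above the young, with a log2 change of 2.13 ± 0.21 (edgeR adjusted p = 5.36e-06). Cldn4, a tight junction claudin, went from 25.5, 49.2 and 45.4 to 247, 208, 326 and 205 CPM (2.88 ± 0.28, edgeR adjusted p = 4.03e-06). E-cadherin, Cdh1, rose by 1.42 ± 0.29 and the connexin Gja1 of the basal layer by 0.89 ± 0.21 (edgeR adjusted p = 0.00172 and 0.00565, and 0.0537 for Gja1 without Young A). Catenin Ctnnb1 was at 119, 138 and 139.6 and 108, 97.1, 106 and 74.7 CPM and was not called (log2 change -0.34 ± 0.19, edgeR adjusted p = 0.199).

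**Figure D4:**
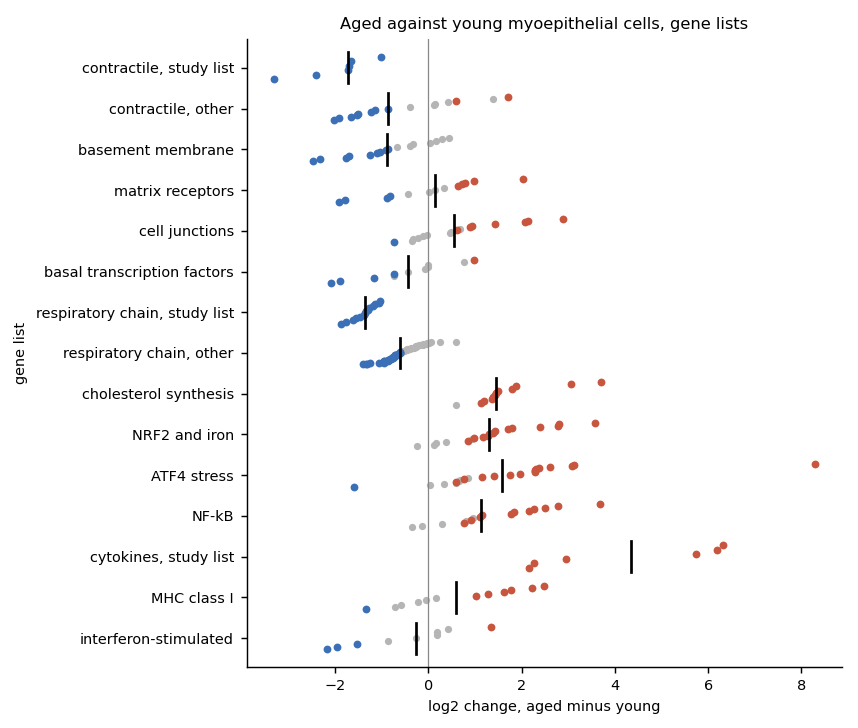
Log2 change of each tested member of 15 gene lists, aged minus young myoepithelial cells. Red points are called higher, blue points called lower, grey points not called, and the black line is the median of the list. The contractile and respiratory chain lists lie mostly below 0, the cytokine, cholesterol, NRF2 and ATF4 lists mostly above, and the farthest ATF4 point, Chac1, is a fitted value against 0 young counts and no bound.

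Of 11 tested transcription factors of the basal lineage, 1 rose and 4 fell (median log2 change -0.43). Runx1, a factor of epithelial and blood lineages, went from 236, 349 and 308 to 458, 538, 658 and 490.1 CPM, every aged mouse above every young one (log2 change 0.98 ± 0.21, edgeR adjusted p = 0.00234). Nfix, a nuclear factor I protein, fell from 230.4, 334 and 308 to 132, 112, 146 and 86.1 CPM, and Etv5, an ETS factor downstream of FGF signaling, from 17, 59 and 16.2 to 4.59, 4.13, 7.69 and 6.28 CPM. Mef2c, a muscle transcription factor, fell by 1.89 ± 0.40 on the log2 scale (edgeR adjusted p = 0.00235). Sox10 and Id4, factors of the basal layer, were not called (log2 changes -0.01 ± 0.25 and -0.00 ± 0.20, edgeR adjusted p = 0.995 and 0.999).

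Ligands and receptors of developmental signaling changed in both directions. In the Wnt and basal progenitor list 4 of 13 tested rose and 2 fell (median log2 change 0.44). Procr, the protein C receptor that marks a basal progenitor population, was at 4.72, 4.92 and 6.49 CPM in the young and 43.2, 23.4, 32.3 and 51.3 CPM in the aged mice (log2 change 2.94 ± 0.49, edgeR adjusted p = 0.000402). Lgr6, an R-spondin receptor, and Tcf7l1, a repressor of Wnt targets, fell from 21.7, 24.6 and 26 to 6.43, 8.27, 4.62 and 4.56 CPM and from 23.6, 39.3 and 48.7 to 7.35, 12.1, 15.4 and 8.56 CPM. The Wnt antagonists Sfrp1 and Wif1 rose by 1.75 ± 0.35 and 1.14 ± 0.27 and the ligand Wnt11 by 1.21 ± 0.34 (edgeR adjusted p = 0.00164, 0.00469 and 0.0141), where Wif1 and Wnt11 were not called without Young A (edgeR adjusted p = 0.0662 and 0.198).

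Among 8 tested Notch genes 4 rose and 1 fell (median log2 change 0.57). Only 2 rose without Young A, without Young C, without any 1 of the aged mice or without TMM factors, and 1 with DESeq2. Jag1 was at 32.1, 49.2 and 16.2 CPM in Young A, B and C and at 298, 253, 202 and 338 CPM in Aged A to D, while Jag2 was at 9.44, 19.7 and 13 and 2.76, 4.13, 1.54 and 1.14 CPM. The aged mice lay far above the young for Jag1 (log2 change 3.23 ± 0.31, edgeR adjusted p = 4.03e-06). The Notch target Hes1 had 159, 226 and 256 and 153, 136, 228 and 75.3 CPM and was not called (edgeR adjusted p = 0.266). In the EGF family 2 of 5 tested rose and 1 fell (median log2 change 0.11, or -0.18 without Young A). Nrg1 went from 48.2, 68.8 and 22.7 to 110.2, 99.5, 143 and 133 CPM (log2 change 1.51 ± 0.28, edgeR adjusted p = 0.000924), Hbegf rose by 0.66 ± 0.22, and Areg, the amphiregulin of HS cells, fell by 2.95 ± 0.46 on the log2 scale (edgeR adjusted p = 0.0373 and 0.000249). The rise of Hbegf was not called without TMM factors or without Young A, Young C, Aged B, Aged C or Aged D (edgeR adjusted p = 0.0534 to 0.253).

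In the TGF-beta and BMP list 3 of 16 tested rose and 5 fell (median log2 change -0.21), where 2 fell without Young C (median -0.04). Over all tested genes 12.8% were called higher and 14.8% lower. The ligands Tgfb1 and Tgfb2 were at 35.9, 39.3 and 45.4 and 3.78, 9.83 and 9.74 CPM in the young mice and at 221, 137, 112 and 163 and 42.3, 23.1, 36.9 and 44.5 CPM in the aged mice. Neither overlapped between the ages, and their log2 changes were 2.11 ± 0.27 and 2.67 ± 0.47 (edgeR adjusted p = 5.61e-05 and 0.000627). The coreceptor Tgfbr3 and the BMP target Id1 fell by 1.55 ± 0.31 and 1.34 ± 0.25 on the log2 scale (edgeR adjusted p = 0.00146 and 0.00103). Fst, the activin antagonist follistatin, rose by 1.02 ± 0.24 (edgeR adjusted p = 0.00463), while the TGF-beta targets Pmepa1 and Smad7 were not called (log2 changes -0.14 and -0.43, edgeR adjusted p = 0.684 and 0.212).

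Secreted cytokines were among the largest rises. A list of 5 cytokines and the growth factor Vegfa, taken from those the paper names, rose in all 6 (median log2 change 4.34), again chosen on these samples. The paper also names Tgfb1 and Jag1, which stand above with their own families. Cxcl1 and Cxcl2, which attract neutrophils, were at 59.5, 19.7 and 107 and 21.7, 4.92 and 64.9 CPM in Young A, B and C. In Aged A to D they reached 2656, 2484, 1943 and 5533 and 1809.8, 1561, 837 and 4501 CPM, with Aged D far the highest for both. Csf3, the granulocyte colony-stimulating factor, was at 22.7, 4.92 and 19.5 CPM in the young and, almost evenly, at 1453, 1290.0, 1268 and 1184 CPM in the aged mice. The log2 changes were 5.74 ± 0.49, 6.32 ± 0.66 and 6.19 ± 0.30 (edgeR adjusted p = 1.2e-06, 7.75e-06 and 8.57e-10). Csf1, Cxcl16 and Vegfa, which act on macrophages, T cells and vessels, rose by 2.94 ± 0.25, 2.25 ± 0.25 and 2.15 ± 0.32 (edgeR adjusted p = 1.18e-06, 1.26e-05 and 0.000173). Of 20 further cytokines, 8 had enough counts to be tested, and 1 rose and none fell (median log2 change 0.74). It was Lif, a cytokine of the interleukin 6 family, at 6.61, 0 and 6.49 CPM in the young and 41.3, 64.8, 81.5 and 79.9 CPM in the aged mice (log2 change 3.64 ± 0.46, edgeR adjusted p = 5.58e-05). The monocyte chemokine Ccl2 was at 163, 216 and 107 and 216, 395, 152 and 252 CPM and missed the threshold (edgeR adjusted p = 0.0534), as did Cxcl12 (log2 change -0.08, edgeR adjusted p = 0.886).

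The promoters of Cxcl1 and Cxcl2 are shown because both hold the same kappaB site, the binding motif of NF-kappaB, in the stretch from 170 to 46 bases before the RefSeq start (GRCm38.p6, both on the + strand, capitals mark the site). Cxcl1 lies at chr5:90891075-90891199, with the site starting 71 bases before the start, and Cxcl2 at chr5:90903729-90903853, with the site 97 bases before it.
Cxcl1: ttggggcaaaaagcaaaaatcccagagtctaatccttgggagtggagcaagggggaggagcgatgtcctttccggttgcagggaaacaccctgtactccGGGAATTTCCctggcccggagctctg
Cxcl2: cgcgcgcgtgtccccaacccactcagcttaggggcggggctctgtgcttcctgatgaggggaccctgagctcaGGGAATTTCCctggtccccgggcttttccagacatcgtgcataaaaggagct

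A narrow form of the kappaB motif, close to the site shown for Cxcl1 and Cxcl2, was searched on both strands of the same whole entries. It occurred in 55 of 32851 promoters of all genes (0.167%). Looser forms of the motif were not searched, so the counts here are no census of kappaB sites and do not show how rare such sites are. Of the 6 genes of the cytokine list 4 had a promoter entry and Cxcl1 and Cxcl2 held a match, and of 13 NF-kappaB genes with an entry Nfkbia held one. Here too the match is a description, and the motif was chosen with results of these data known.

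Of 16 tested NF-kappaB factors and feedback targets 11 rose and none fell (median log2 change 1.12). Nfkbia, the inhibitor that NF-kappaB induces, was at 509, 570.2 and 643 CPM in the young and 2054, 1537, 2215 and 1820.4 CPM in the aged mice, with a wide gap between them (log2 change 1.84 ± 0.21, edgeR adjusted p = 1.57e-05). Tlr2, a receptor for bacterial lipoproteins, went from 10.4, 24.6 and 16.2 to 154, 131, 257 and 145 CPM (3.67 ± 0.36, edgeR adjusted p = 4.18e-06). Tnip1, Tnfaip3 and Nfkbiz, brakes and cofactors of the same pathway, rose by 2.51 ± 0.29, 2.77 ± 0.56 and 2.26 ± 0.33 (edgeR adjusted p = 2.22e-05, 0.00174 and 0.000146). Vcam1, an adhesion molecule for leukocytes, was at 98.2, 54.1 and 35.7 CPM in the young and at 1502, 559, 801 and 1134 CPM in the aged mice, a log2 change of 3.93 ± 0.37 (edgeR adjusted p = 4.03e-06). The factors Rel and Bcl3 were not called (edgeR adjusted p = 0.0947 and 0.457).

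Of 12 tested MHC class I genes 6 rose and 1 fell (median log2 change 0.59), and of 9 interferon-stimulated genes 1 rose and 3 fell (median log2 change -0.27), of which 1 fell without Young A, Aged A, Aged B or Aged D, with a median of 0.14 without Young A and 0.13 without Aged B. H2-D1, a classical heavy chain, was at 876, 1003 and 555 CPM in the young and 2539, 1280.0, 2074 and 1434 CPM in the aged mice (log2 change 1.27 ± 0.25, edgeR adjusted p = 0.00135). H2-T23 rose by 2.21 ± 0.29, and H2-Q4, H2-Q6 and H2-Q7, near-identical copies between which the counting may split reads, by 1.77, 2.48 and 1.61 (edgeR adjusted p = 7.65e-05, 0.000647, 0.000317 and 0.0051). The light chain B2m had 1628, 1263 and 912 and 1191, 774, 1365 and 788 CPM and was not called (edgeR adjusted p = 0.536), and the immunoproteasome gene Psmb10 fell. Of the interferon-stimulated genes Bst2, Xaf1 and Irf7 fell and Irf1, which NF-kappaB also induces, rose by 1.34 ± 0.34 (edgeR adjusted p = 0.00748, and 0.113 without Young A).

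In 3 lists of supply and stress genes most members rose. Of 12 tested cholesterol synthesis genes 11 rose and none fell (median log2 change 1.44). Msmo1, a sterol oxidase, was at 9.44, 9.83 and 0 CPM in Young A, B and C and at 101, 65.1, 96.9 and 109.5 CPM in Aged A to D (log2 change 3.71 ± 0.42, edgeR adjusted p = 1.81e-05). Idi1 and Fdps, which make isoprenoid precursors, rose by 3.06 ± 0.48 and 1.87 ± 0.30 (edgeR adjusted p = 0.000274 and 0.000296). Srebf2, the factor that controls these genes, was at 31.2, 24.6 and 19.5 and 42.3, 32.4, 36.9 and 40.5 CPM and was the one not called (edgeR adjusted p = 0.126).

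The list of NRF2 targets and iron handling rose in 13 of 19 tested and fell in none (median log2 change 1.31). Hmox1, heme oxygenase, was at 54.8, 162 and 127 CPM in the young and at 371, 1202, 1743 and 1210.0 CPM in the aged mice, with Aged A well below the others and still above every young mouse (log2 change 3.57 ± 0.47, edgeR adjusted p = 7.11e-05). Sqstm1, the autophagy receptor p62, was more even, at 128, 211 and 182 and 1019.7, 940.0, 1266 and 1075 CPM (2.79 ± 0.23, edgeR adjusted p = 1.18e-06). The ferritin heavy chain Fth1, at 3529, 4050.1 and 4129 CPM in the young, reached 10335, 7993, 7927 and 11049 CPM in the aged mice (1.37 ± 0.22, edgeR adjusted p = 0.000275). Srxn1 and Gsr, enzymes of thiol redox, rose by 2.39 ± 0.27 and 1.70 ± 0.32 (edgeR adjusted p = 1.81e-05 and 0.00113), while Prdx1 was not called (1288, 1022 and 1029 and 1279, 1055, 975 and 1214 CPM, edgeR adjusted p = 0.674).

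ATF4 targets, the amino acid branch of the stress response, rose in 15 of 22 tested and fell in 1 (median log2 change 1.57, the same with Chac1 at its lower bound). Mthfd2, an enzyme of mitochondrial folate metabolism, was at 18.9, 19.7 and 32.5 CPM in the young and 117, 154, 160.0 and 288 CPM in the aged mice (log2 change 3.13 ± 0.40, edgeR adjusted p = 5.61e-05). Trib3, Asns and Tars, a pseudokinase, asparagine synthetase and a tRNA synthetase, rose by 3.08 ± 0.48, 2.36 ± 0.49 and 2.30 ± 0.28 (edgeR adjusted p = 0.000262, 0.00211 and 3.62e-05). Chac1, which degrades glutathione, had 0 UMIs in all young mice and 9.19, 31, 36.9 and 54.8 CPM in the aged mice, at least 17.3-fold higher against a floor of 3 counts over the young group. The tRNA synthetases Aars and Eprs were not called, at log2 changes of 0.34 and 0.03 (edgeR adjusted p = 0.197 and 0.933). In the unfolded protein list 3 of 10 tested rose and 2 fell (median log2 change -0.23), but none rose without Young A and 1 without Aged C, without Aged D or without TMM factors. The main chaperone Hspa5 had 456, 767 and 672 and 711, 770.2, 715 and 665 CPM (edgeR adjusted p = 0.254). In the heat-shock list 2 of 13 rose and 1 fell (median 0.08, or -0.05 without TMM factors, with 1 rise and 2 falls without Young A and 4 rises without Young B), namely Hspa9 and Hspb1 up and Dnaja1 down. These heat-shock counts were near the shares over all tested genes, 12.8% higher and 14.8% lower.

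Genes of oxidative phosphorylation named in the paper fell in 14 of 14 (median log2 change -1.35), a list chosen on these samples. Of 62 tested among 75 other nuclear genes of the respiratory chain 31 fell and none rose (median log2 change -0.61), but the count was 6 without Young A, 20 with the replicate block and 37 without TMM factors. Ndufv3 and Ndufa13 of complex I, both on the list of the paper, went from 86.9, 83.6 and 64.9 to 22, 22, 13.8 and 20 CPM and from 398, 275 and 308 to 122, 119, 83.1 and 78.7 CPM. Both falls left a gap between the ages, 1.87 ± 0.24 and 1.62 ± 0.21 on the log2 scale (edgeR adjusted p = 5.66e-05 and 5.76e-05). The abundant Cox4i1 and Atp5b had smaller changes that were not called (log2 -0.44 and -0.12, edgeR adjusted p = 0.0882 and 0.672). In glycolysis and hypoxia 3 of 16 tested rose and none fell (median log2 change 0.13). They were Slc2a1, the glucose transporter GLUT1 (85.9, 73.7 and 104 to 382, 238, 265 and 238 CPM, log2 change 1.75 ± 0.23, edgeR adjusted p = 5.69e-05), the hypoxia gene Ndrg1 (68.9, 78.6 and 81.2 to 435, 341, 392 and 610.4 CPM, 2.69 ± 0.27, edgeR adjusted p = 5.58e-06) and pyruvate kinase Pkm. Gapdh and Ldha were not called (edgeR adjusted p = 0.399 and 0.739). Of 89 tested genes with a symbol of ribosomal protein form 5 rose and none fell (median log2 change 0.24), and 2 of the 5, Rps6ka3 and Rps6kb1, are kinases. With each mouse left out 2 (Young A, Young B) to 11 (Aged A) of them rose.

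Immediate early genes and p53 targets moved in both directions, where 12.8% of all tested genes were called higher and 14.8% lower. Of 14 tested immediate early genes 4 rose and 3 fell (median log2 change -0.01, between -0.10 and 0.09 with each mouse left out). Fosl1, a partner of JUN, went from 105, 93.4 and 87.6 to 256, 298, 306 and 324 CPM and Ier3 from 415, 575 and 672 to 1690.4, 1536, 1631 and 1811 CPM, without overlap (log2 changes 1.72 ± 0.21 and 1.72 ± 0.21, edgeR adjusted p = 4.41e-05 and 4.74e-05). Fosb fell by 1.30 ± 0.29 on the log2 scale (edgeR adjusted p = 0.00381), and Fos and Junb were not called. Of 12 tested p53 targets and kinase inhibitors 3 rose and 3 fell (median 0.10, or -0.01 without TMM factors, and -0.28 without Young A, where 1 rose and 2 fell). Mdm2, which degrades p53, rose by 1.75 ± 0.27 and the cell cycle inhibitor Cdkn1a by 0.69 ± 0.24, while the proapoptotic Bax fell by 1.01 ± 0.24 on the log2 scale (edgeR adjusted p = 0.000234, 0.038 and 0.00514). Without Young A neither Cdkn1a nor Bax was called (edgeR adjusted p = 0.239 and 0.0981), and Cdkn1a was also lost without TMM factors, Aged A, Aged C or Aged D (edgeR adjusted p = 0.0759 to 0.096).

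Among the 12 genes with the largest rises that separated the ages and averaged at least 20 CPM, several are made by other cell types. Milk caseins Csn1s1, Csn2 and Csn1s2a had 0 UMIs in all young mice. In Aged A to D they were at 119, 1.72, 305 and 52.5, at 52.4, 0.689, 49.2 and 11.4 and at 28.5, 0.344, 46.2 and 21.7 CPM, with Aged B near 0 for all of them. Against the floor of 3 counts the aged means were at least 62.5-fold, 14.9-fold and 12.7-fold higher. Without Young A these casein calls were lost (edgeR adjusted p = 0.122, 0.223 and 0.218), and those of Csn2 and Csn1s2a also without Young B or Young C. The casein Csn1s1 is a product of AV cells, where it averaged 1.31 CPM in young and 2530.4 CPM in aged mice. In the list of alveolar markers 5 of 10 tested rose and 1 fell (median log2 change 1.77), a count and median that rest on single mice (1 rose without Young A, 3 without Young B or Young C, and without Aged A, Aged C or Aged D 2 rose of the 7 that could be tested, with medians of 0.01, 0.23 and 0.27). Mfge8, a milk fat globule protein, fell by 0.76 ± 0.18 on the log2 scale (edgeR adjusted p = 0.00507). A UMI of Csn3, Trf, Mfge8, Wfdc18 or Ltf was found in 82.8% of thinned young and 70.1% of thinned aged myoepithelial cells (exact p = 0.0857). This set leaves out Csn1s1, Csn2 and Csn1s2a. Within it Mfge8 averaged 561 CPM in young and 311 CPM in aged mice, and Csn3 averaged 49.5 and 322 CPM. Il19 and BC023719, also at 0 in the young, were at least 12.1-fold and 21.4-fold higher, Il19 being a cytokine of the interleukin 10 family. Serpina3n, a secreted protease inhibitor, was at 3.78, 0 and 0 and 411, 122, 172 and 168 CPM (log2 change 6.44 ± 0.63, edgeR adjusted p = 4.44e-06), and Spp1, osteopontin, at 0, 4.92 and 0 and 59.7, 22.4, 9.23 and 66.7 CPM. The other 5 were Npy, at a log2 change of 5.93 ± 0.57 (edgeR adjusted p = 4.03e-06), and Cxcl1, Cxcl2, Csf3 and Chac1 above.

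Of the 12 largest falls 7 were in transcripts of stromal or immune cells. Pi16, Col3a1, Col1a1 and Clec3b of fibroblasts, Gpihbp1 of endothelium and H2-Eb1 and Retnla of immune cells were at 9.83 to 98.3 CPM in the young mice and at 0 to 9.23 CPM in the aged mice. Of the fibroblast markers 5 of 6 tested fell (median log2 change -2.73), 1 or 2 of the 2 to 4 that could be tested without Young A, Aged A, Aged B or Aged D, and of the few tested markers of endothelium, immune cells and HS cells 1 of 2, 2 of 3 and 1 of 2 fell, none rising (medians -1.12, -1.80 and -0.70). No pericyte marker had enough counts to be tested. The remaining large falls were Actg2, from 383, 152 and 542 to 23.9, 68.9, 26.2 and 9.13 CPM (fell by 3.32 ± 0.46, edgeR adjusted p = 0.000107), and Spon2, a matrix spondin, from 188, 83.6 and 179 to 8.27, 25.5, 13.8 and 3.42 CPM (fell by 3.40 ± 0.41, edgeR adjusted p = 3.49e-05). Sostdc1, an antagonist of BMP and Wnt ligands, fell from 43.4, 29.5 and 26 to 0.919, 4.82, 1.54 and 0 CPM, and Them5, a thioesterase, and Rnaset2b, a ribonuclease, fell as well.

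To ask which age changes differed from those of other cells of the same libraries, the interaction of cell type and age was tested with the mouse as a block. Against AV cells 550 genes changed more positively in myoepithelial cells (5.83% of 9433 tested) and 324 more negatively (3.43%), which became 433 and 408 with RLE size factors. Against HS cells the counts were 401 (4.73% of 8478) and 407 (4.8%), and against pericytes 223 (4.59% of 4858) and 265 (5.45%). Of the genes called with age, 549 were also called against AV cells in the same direction and 573 against HS cells. Against both, 194 of them rose and 132 fell. Without Young A the counts called were 375, 483 and 177, and without Young C 334 against AV and 464 against HS cells. In data simulated with the same assumptions 47.2%, 52.7% and 49.5% of 4-fold differences were recovered, so the lists are incomplete.

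**Figure D5:**
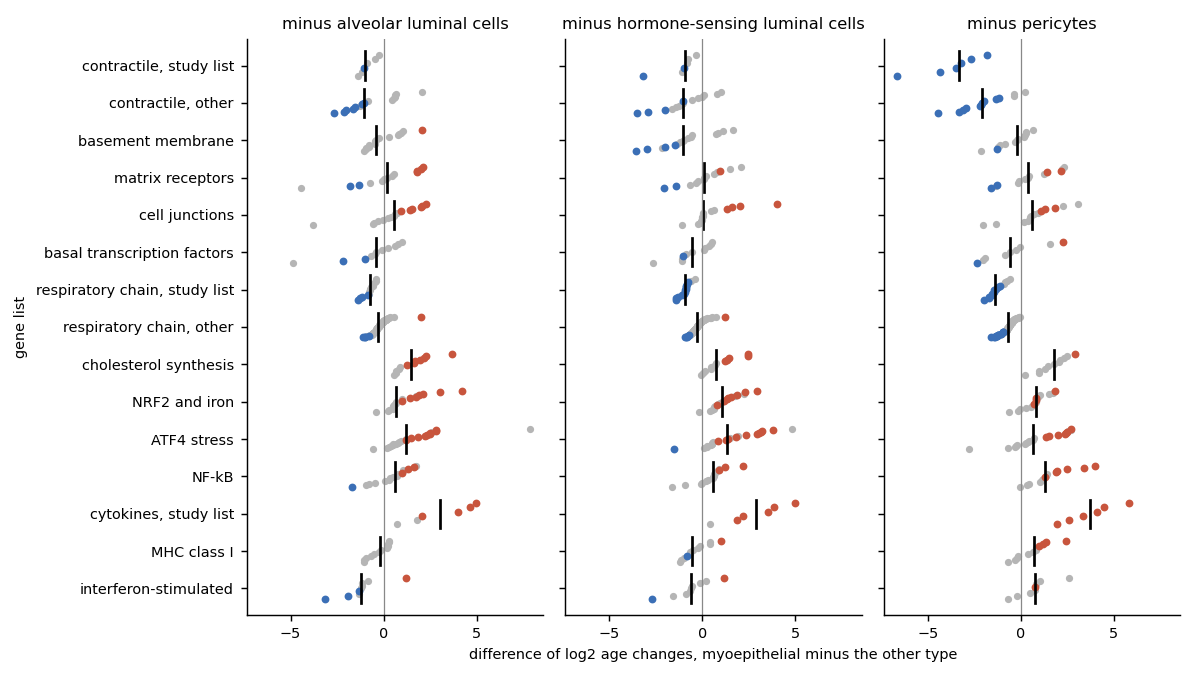
Difference of the log2 age change between myoepithelial cells and AV cells, HS cells or pericytes for the members of 15 lists. Red and blue points are called more positive and more negative in myoepithelial cells, grey points are not called, and black lines are medians. The 6 contractile genes of the study are all blue against pericytes, and the MHC class I genes are all grey against AV cells.

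Of the 6 cytokine and growth factor genes of the paper's list 4 changed more positively in myoepithelial than in AV cells and 5 than in HS cells. Csf3 changed by 4.96 ± 0.90 more on the log2 scale in myoepithelial than in AV cells, by 4.99 ± 0.37 more than in HS cells and by 5.83 ± 0.69 more than in pericytes (edgeR adjusted p = 0.00222, 6e-08 and 1.24e-05). Plet1, a surface protein of epithelial progenitors, was at 111, 59 and 227 CPM in the young and 3006, 2919.5, 2651 and 3606 CPM in the aged myoepithelial cells, and at 3342 and 2723 CPM in AV cells, where it was already high. The differences were 4.77 ± 0.51 against AV and 4.74 ± 0.30 against HS cells (edgeR adjusted p = 2.23e-05 and 6.51e-09). For Aqp3 they were 6.12 ± 0.49 and 4.41 ± 0.48 (edgeR adjusted p = 1.18e-06 and 8.49e-06). Cda, cytidine deaminase, went from 85, 29.5 and 42.2 to 896, 499, 898 and 758 CPM in myoepithelial cells and stood apart from HS cells (4.04 ± 0.39) and pericytes (6.84 ± 0.93, edgeR adjusted p = 2.53e-06 and 6.77e-05). Fermt1, the integrin activator kindlin-1, and Tac1, the precursor of substance P, were among the largest positive differences from HS cells, at 4.16 ± 0.55 and 6.36 ± 1.34 (edgeR adjusted p = 9.37e-05 and 0.00515). Against AV cells Ddit4l, an inhibitor of mTORC1, Hamp, the iron hormone hepcidin, and Emp3 ranked beside them, at 5.88 ± 1.03, 5.13 ± 1.48 and 5.12 ± 0.56 (edgeR adjusted p = 0.0019, 0.0379 and 2.41e-05).

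Negative differences from luminal cells included C3, the central complement component, at 86.9, 63.9 and 81.2 CPM in young and 16.5, 12.1, 12.3 and 7.42 CPM in aged myoepithelial cells, with -3.00 ± 0.37 against AV cells (edgeR adjusted p = 7.13e-05). Fam20a, a pseudokinase of the secretory pathway, differed from both luminal types, by -3.09 ± 0.57 and -4.76 ± 0.77 (edgeR adjusted p = 0.00259 and 0.000698). Elovl4, a fatty acid elongase, Pdk4, a kinase that restrains pyruvate oxidation, Serpinb6b and Ifit1 were the others against AV cells, at -5.52, -4.41, -3.38 and -3.17 (edgeR adjusted p = 0.0304, 0.000475, 0.0306 and 0.0087), although Pdk4 and Ifit1 were not called with age in myoepithelial cells themselves. Against HS cells Krt15, Pappa, a protease of IGF-binding proteins, Emb, Pianp and Dcn led, at -3.72, -4.40, -3.98, -4.62 and -5.38 (edgeR adjusted p = 6e-05, 0.0272, 0.00387, 0.0085 and 8.49e-06). Dcn, decorin, is a fibroblast product, and the part of fibroblast RNA in its value was not tested.

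By list, calls against the luminal types were counted beside those over all genes. Of the ATF4 targets 9 of 22 changed more positively than in AV and 10 of 22 than in HS cells, of the cholesterol genes 7 and 5 of 12, of the NRF2 and iron genes 7 and 8 of 19, and of the junction genes 6 and 4 of 16, where the background was 5.83% and 4.73% of all genes. Of the NF-kappaB genes it was 3 and 3 of 16. Of the basement membrane genes 0 of 16 were more negative than in AV cells and 1 was more positive. More negative were 4 of 16 against HS cells and 1 of 13 against pericytes. Over all genes 3.43%, 4.8% and 5.45% were more negative than in AV cells, HS cells and pericytes. Of the 12 MHC class I genes 0 were called against AV cells in either direction by edgeR, where 9.27% of all genes were (9.53% against HS cells), and an adjusted p that misses the threshold does not show equal change. Of the 14 oxidative phosphorylation genes of the paper, a list chosen on these samples, 4 were more negative than in AV, 12 than in HS cells and 10 than in pericytes. Of the other nuclear respiratory chain genes 4 of 62 were more negative than in AV and 5 of 62 than in HS cells. Against pericytes it was 14 of 60.

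The contractile genes changed differently in pericytes, the other contractile type. All 6 contractile genes of the paper and 10 of 13 tested further ones were more negative with age in myoepithelial cells than in pericytes, where 5.45% of all genes were. Against AV cells 1 of the 6 and 7 of 15 further ones were more negative, and against HS cells 2 of 6 and 4 of 15. Over all genes these shares were 3.43% and 4.8%. Of the 4 markers, Acta2 among them, 0 were called against AV cells in either direction, which does not show equal change. Acta2 averaged 7225 CPM in young and 1279 CPM in aged myoepithelial cells, and 1109.6 and 4194 CPM in pericytes (difference -4.36 ± 0.34 on the log2 scale, edgeR adjusted p = 1e-07). Actg2, enteric smooth muscle actin, and Pdlim3, an actinin-binding protein of muscle, differed by -6.64 ± 0.83 and -5.16 ± 0.54 (edgeR adjusted p = 2.75e-05 and 5.4e-06). Il17b, the growth factor Mdk, Fmod and Cpxm2 stood at the negative end, at -6.94, -5.97, -4.75 and -4.71, and Vcam1 and Sh2d5 the positive end, at 5.66 and 4.75 (edgeR adjusted p = 0.00586, 0.0289, 0.00257, 0.00478, 3.29e-08 and 0.0101). With age alone, the calls of Ddit4l and Tac1 were lost without Young A and those of Pappa and Fmod without Young C (edgeR adjusted p = 0.0616, 0.0958, 0.158 and 0.121). Aged pericytes were few, 20 to 46 cells per mouse. The annotated pericytes also held the endothelial transcripts Fabp4, Eng and Sox17, at means of 9177, 281 and 135 CPM. Their markers Des and Rgs5 averaged 175 and 1040 CPM in young and 443 and 600 CPM in aged pericytes. The part of endothelial RNA, or of a shift in the makeup of the type, in these differences was not tested.

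Between the myoepithelial cells of a mouse, the counts of secreted proteins and of metal-binding proteins were the most uneven. Over the 5 mice with at least 100 such cells (Young A and the 4 aged mice), with every cell thinned to 2000 UMIs, the ratio of variance to mean had a median of 1.23 over 498 genes of at least 0.5 UMI per cell. For Slpi it was 34.5 (median over mice, 15.3 in Young A and 33.8 to 37.4 in the aged mice). Cxcl2, Cxcl1 and Csf3 had ratios of 22.9, 15.9 and 13.1, but 0.968, 2.24 and 2.76 in Young A, where their levels were low. The metallothioneins Mt1 and Mt2, which bind zinc and copper, had 15.5 and 15.4 and were less uneven in Young A (10.2 and 7.37) than in any aged mouse, though far above the median gene. Fth1 (15), Npy (14.9), the nuclear RNA Malat1 (12.6) and the membrane gene Tm4sf1 (8.57) completed the 10 highest. Across cells of a mouse, Cxcl1 and Cxcl2 correlated at a median r of 0.686 over the mice (0.209 to 0.768), Cxcl1 and Csf3 at 0.354, Mt1 and Mt2 at 0.756 and Krt14 and Krt17 at 0.315. Acta2 correlated with Mt1 at 0.356 and with Krt14 at 0.199, and at -0.256 with Fth1. These describe cells of 1 library that share its depth, and genes with more UMIs per cell can reach higher values. Mt1 itself fell with age, at 15405, 15881 and 17634 and 13086, 7473, 7133 and 3230.1 CPM (fell by 1.00 ± 0.30 on the log2 scale, edgeR adjusted p = 0.0193), a call lost without Young A or Young C (edgeR adjusted p = 0.0637 and 0.0785). Tm4sf1 rose by 2.02 ± 0.21 and Slpi by 1.39 ± 0.28 (edgeR adjusted p = 7.73e-06 and 0.00175), Slpi from 4375, 7053 and 5126 to 17363, 16292, 6992 and 12762 CPM with Aged C just under the highest young mouse.

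Myoepithelial cells made up 20.6%, 7.16% and 3.76% of the epithelial cells of Young A, B and C and 20.3%, 28.4%, 11.1% and 27.3% of those of Aged A to D. Young A lay within the range of the aged mice, and the means of 10.5% ± 8.89 (SD, n = 3) and 21.8% ± 7.95 (SD, n = 4) did not differ beyond the spread between mice (exact two-sided permutation test, p = 0.143). As a share of all cells the means were 4.46% and 17.8% (exact p = 0.0571). A UMI of the proliferation genes Mki67 or Top2a was found in 3.74%, 2.5% and 0% of thinned young cells and in 1.15%, 1.06%, 0% and 0% of thinned aged cells. The means of 2.08% ± 1.91 and 0.551% ± 0.637 did not differ beyond the spread between mice (exact p = 0.171), with 2.21% and 0.639% in AV cells. Without thinning they were 4.30% and 1.22% (exact p = 0.114). The deposited phase calls put 69.0% of young and 57.4% of aged myoepithelial cells in S or G2M (exact p = 0.0286), shares far above those with a UMI of either gene, and no cycling is read from them.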

How the data were processed

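Single-cell libraries (10x Chromium, gene ends at the 3′ side), 1 per mouse, were made from 3 young and 4 aged mice, which are separate animals. Per the submitters' processing notes, reads were aligned to mm10 with Cell Ranger 2.0, and the authors removed cells with too few or too many UMIs or genes or a high mitochondrial share before they deposited the UMI counts, which hold 27998 rows and 13684 cells. The authors also deposited per cell the fraction of mitochondrial UMIs, Seurat cell-cycle scores with the phase called from each score, and a cell type named from clusters. The annotation version was not given in the sources used here.

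The counts of 56 rows were added to the row of the same symbol, which left 27942 genes. Counts were summed over the cells of a type in each mouse with at least 3 cells, filtered with filterByExpr, scaled with TMM and tested with edgeR 4.0.16 (glmQLFit and glmQLFTest; limma 3.58.1, R 4.3.3). Calls needed a Benjamini-Hochberg adjusted p below 0.05 with at least 1.5-fold between the ages. The same call on type by age, with the mouse as a block, gave the differences from AV cells, HS cells and pericytes. Shares of cells were compared after thinning each cell to 2000 UMIs (0 cells held fewer) with exact permutation tests over mice in Python 3.11.15 (scipy 1.17.1, numpy 2.4.6, pandas 2.3.3, matplotlib 3.10.9). Scrublet in scanpy 1.11.5 marked 73 of 13684 cells (0.533%) and 23 myoepithelial cells (1.38%) as doublets, which were kept. DESeq2 1.42.0, RLE factors, total counts, no filter, thinned sums, no ribosomal or mitochondrial genes, no doublets, G1 cells, a block of the label letters and the omission of each mouse were alternatives. Leaving out cells whose barcode occurs in 2 libraries, and the counts of list members under each alternative, were chosen after the data were seen.

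Named were the 4 markers, the 15 genes with the largest ratio to the next type, the 12 largest changes in each direction without overlap and with a mean of at least 20 CPM, up to 6 called and 3 other members of each list, the 6 largest differences in each direction from each other type, and the 10 genes most variable between cells. A few genes that the rule picks are not reported here. The members and lists were chosen with earlier results of these data known. The labels do not say that letters A to C pair the mice. Floors (3 counts) and counting error do not cover the spread between mice. Promoters were RefSeq sequences of GRCm38.p6. The steps were tested on simulated data.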

Additional observations from a re-analysis of the deposited data

Results flagged for a closer look

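In 12 of 288 named genes, 1 aged mouse stood apart from the other 3 by more than Dixon's 95% criterion allows, and in none of the 15 shares of cells checked. Chance gives about 1 in 20 such groups. Aged A stood apart for Retnla at 2.76 CPM and Rnaset2b at 13.8 CPM, both listed at 0 in the other aged mice, and for Cdh1 at 151.6 CPM. Aged B stood apart for the oxytocin receptor Oxtr at 8.96 CPM, where the others had 2.76 to 3.08 CPM, and for the thioesterase gene Them5 at 9.99 CPM. Aged C stood apart for Pgm5 at 38.5 CPM, the Notch target Hey1 at 26.2 CPM, the stress cytokine Gdf15 at 55.4 CPM and the complex I gene Ndufs6 at 64.6 CPM. Aged D stood apart for the translation inhibitor Eif4ebp1 at 319 CPM, the chaperone gene Dnaja1 at 201 CPM and Rbpj, the DNA-binding partner of Notch, at 40.5 CPM.

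The change with age itself differed between cell types in the test of the difference. It differed in 874 genes between myoepithelial and AV cells, in 808 between myoepithelial and HS cells and in 488 between myoepithelial cells and pericytes.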

How the results depend on the processing

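The counts of genes higher and lower with age, 862 and 998, were 332 and 356 with sums thinned to the smallest, where 2427 genes were tested, and 348 and 432 in G1 cells alone, where 3306 were. They were 628 and 732 with DESeq2 and 830 and 958 without the cells whose barcode occurs in 2 libraries. With each mouse left out they ranged from 492 to 822 and from 480 to 1005, lowest without Young A. The replicate block of label letters gave 579 and 652, where the same 6 mice without the block gave 658 and 789. The deviations of same-letter mice correlated at -0.0227, -0.0269 and -0.00602, within the range of pairs with different letters (-0.0421 to 0.0786). Whether same-letter libraries were handled together was not tested. The differences from AV cells, 874 genes, were 178 with thinned sums and 334 to 751 with each mouse left out. Those from HS cells, 808 genes, were 514 with DESeq2, 188 thinned and 464 to 819. Those from pericytes, 488 genes, were 308 with DESeq2, 203 thinned and 177 to 461. Of 200 named and called genes, none lost the call with RLE factors, 15 with DESeq2, 13 without TMM factors, 5 without the filter and 45 of 191 without Young A, and 24 of 136 lost it with thinned sums, 24 of 151 in G1 cells and 20 of 181 with the block. None changed direction while called. The myoepithelial share of epithelial cells differed by 11.3 points (7.89 to 16.3 with each mouse left out, 13.3 of all cells). The share of myoepithelial cells with a Mki67 or Top2a UMI differed by -1.53 points (-2.57 to -0.699), and by -11.6 with the deposited phases S and G2M (exact permutation p = 0.0286). The cause of these differences was not tested, apart from the fewer genes or mice that an alternative leaves. Depth limits low genes, most of all in Young B and Young C.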

Other observations

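Among the 81 genes at least 2-fold higher in myoepithelial cells than in any other type were several known from cartilage, named here after their values were seen. Collagen IX genes Col9a2 and Col9a3 averaged 150 and 136 CPM, 8.21 and 5.04 times the next type, AV cells. Chil1, cartilage glycoprotein 39, averaged 1050.1 CPM and 6.43 times AV cells, Mia 256 CPM and 3.69 times AV cells, and Matn4, a matrilin, 77.3 CPM and 4.21 times fibroblasts. Chadl, chondroadherin-like, averaged 89.4 CPM and 7.93 times the next type. Of these 6 genes Chadl fell with age (edgeR adjusted p = 0.0132, 147, 143 and 77.9 CPM in the young against 56.0, 57.5, 76.9 and 67.9 CPM in the aged mice), and the others were not called (edgeR adjusted p = 0.106 for Col9a2, 0.399 for Col9a3, 0.168 for Chil1, 0.173 for Mia and 0.448 for Matn4).

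Other genes of the set changed with age without being in a list. Lgals7, galectin 7 of stratified epithelia, fell from 1877, 1121 and 1036 CPM to 473, 700.3, 509 and 399 CPM (edgeR adjusted p = 0.00105). Sfn, the epithelial 14-3-3 protein stratifin, rose from 3541, 2089 and 2743 to 6053, 4297, 5197 and 3973 CPM (edgeR adjusted p = 0.00776). Fhl2, a LIM protein of muscle, rose evenly from 59.5, 54.1 and 42.2 to 229.7, 241, 260.0 and 239.6 CPM, a log2 change of 2.28 ± 0.22 (edgeR adjusted p = 4.03e-06), while most contractile genes fell. Igfbp3, which binds insulin-like growth factors, rose by 1.22 ± 0.27 (edgeR adjusted p = 0.00306), with every aged mouse above every young one. These genes were also chosen after their values were seen.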
